A study of Mus musculus with 4 samples.

Results

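The genes examined were 36 genes of the T cell and natural killer (NK) cell lineages, out of 21887 protein-coding genes, in maps of the histone mark H3K27me3 from sorted mouse germinal center B cells, which the series text calls pre-Plasma. The genes were chosen by name for their role in lineages other than the B lineage. That rule uses no measured value, but earlier results of these data were known when the genes were chosen. The 36 genes fall into 6 classes, namely 5 transcription factors, 10 genes of the T cell receptor complex and its signalling, 8 coreceptors and adhesion molecules, 5 costimulatory and checkpoint receptors, 4 effector genes and 4 NK receptors. The maps came from spleens of C57BL/6 mice, with 2 wild type (WT) libraries and 2 libraries labelled KO, which the series text gives as a B KO of Kdm6b, and each library stood for 1 mouse. Peak positions do not show whether Kdm6b was deleted. All mice had received sheep red blood cells, with a second dose on day 5 and analysis on day 12. The sources used here name neither the Cre driver of the B cell knockout, nor its deleted exons, nor the sex of the mice or the markers of the sort. The assay was CUT&Tag, in which a transposase tethered by an antibody tags the DNA near the mark, on 1000 to 5000 cells per library. The libraries are called KO 1, KO 2, WT 1 and WT 2, and where 4 values follow each other they stand in that order.

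H3K27me3 is laid down by the Polycomb complex PRC2 and marks genes held silent, often the regulators of other lineages. Kdm6b is one of the enzymes that remove it. T cells are set apart by transcription factors such as Gata3, Tcf7 and Bcl11b, by the CD3 chains that carry the signal of the antigen receptor, and by the coreceptors CD4 and CD8. NK cells share the cytotoxic effectors with T cells but read their targets through germline-encoded receptors such as the NKG2 and Ly49 families. A few of the genes are also used by B lineage cells. Mouse B cells carry CD2, B-1a cells carry CD5, and Lef1 acts in B cell progenitors.

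The 5 promoters below show the contrast between these genes at sequence level. Each is the reference sequence from RefSeq on GRCm38.p6, from 250 bases before to 50 bases after an annotated start, printed 5′ to 3′ on the gene's own strand, and capitals mark CpG dinucleotides. A promoter entry was found for 25 of the 36 genes. Gata3 (chr2:9878551-9878850, minus strand) is rich in CpG and lay wholly under peaks in all 4 libraries, and its start lies 9353 bp inside the outermost annotated end of the gene. Ctla4 (chr1:60908775-60909074, plus strand) has fewer CpGs and Klrb1c (chr6:128788592-128788891, minus strand) 1, and no library had a peak base in either. Cd3d (chr9:44981536-44981835, plus strand) also has 1 CpG, yet lay wholly under peaks in all 4. Bcl11b (chr12:108003365-108003664, minus strand) was covered in both KO libraries and nearly bare in both WT libraries.
Gata3: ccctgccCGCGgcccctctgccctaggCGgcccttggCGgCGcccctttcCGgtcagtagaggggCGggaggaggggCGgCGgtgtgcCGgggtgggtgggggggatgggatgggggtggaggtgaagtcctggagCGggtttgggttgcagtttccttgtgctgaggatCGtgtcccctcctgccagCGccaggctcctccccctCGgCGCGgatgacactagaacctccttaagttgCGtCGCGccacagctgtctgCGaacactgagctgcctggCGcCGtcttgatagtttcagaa
Ctla4: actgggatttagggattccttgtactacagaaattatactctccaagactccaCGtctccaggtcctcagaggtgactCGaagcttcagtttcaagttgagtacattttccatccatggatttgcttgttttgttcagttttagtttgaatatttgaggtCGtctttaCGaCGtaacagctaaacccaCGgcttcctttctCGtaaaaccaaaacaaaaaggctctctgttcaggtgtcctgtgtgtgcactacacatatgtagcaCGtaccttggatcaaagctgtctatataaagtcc
Klrb1c: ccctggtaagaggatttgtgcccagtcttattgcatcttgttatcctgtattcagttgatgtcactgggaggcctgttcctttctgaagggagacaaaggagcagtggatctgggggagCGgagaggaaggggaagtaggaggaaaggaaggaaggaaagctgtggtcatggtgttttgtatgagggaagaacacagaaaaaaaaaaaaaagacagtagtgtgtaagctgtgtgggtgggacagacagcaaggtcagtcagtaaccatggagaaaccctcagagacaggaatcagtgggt
Cd3d: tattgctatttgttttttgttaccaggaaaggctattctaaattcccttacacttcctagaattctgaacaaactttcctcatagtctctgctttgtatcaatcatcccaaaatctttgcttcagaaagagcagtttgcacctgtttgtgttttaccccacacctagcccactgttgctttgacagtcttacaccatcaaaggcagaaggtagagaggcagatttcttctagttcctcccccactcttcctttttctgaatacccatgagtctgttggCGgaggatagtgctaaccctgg
Bcl11b: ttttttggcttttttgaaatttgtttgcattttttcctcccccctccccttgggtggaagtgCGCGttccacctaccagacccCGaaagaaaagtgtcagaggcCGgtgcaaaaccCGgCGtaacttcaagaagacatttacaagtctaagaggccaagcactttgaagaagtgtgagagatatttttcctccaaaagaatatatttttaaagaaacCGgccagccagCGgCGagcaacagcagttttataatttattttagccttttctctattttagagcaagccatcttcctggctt
Of the 25 promoters, 6 were wholly covered in all 4 libraries (Gata3, Lef1, Cd3d, Cd3g, Ubash3a and Nkg7), against 13% of 17492 promoters of protein-coding genes. A further 9 had no peak base in any library, against 49.3% of all promoters.

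H3K27me3 lay over many but not all of the T and NK genes. Of the 5 transcription factors 4 were marked in every library, as were Cd3g, Cd3d and Cd3e, and the NK receptors in none. Coverage is given as the percent of bases lying under the authors' peaks, for the gene body and for a 4000 bp window from 2000 bp before to 2000 bp after a gene end. Of the 2 ends, the one with the higher mean coverage over the 4 libraries was used, and a window was called marked from 25% covered. KO 1 had 17 of the 36 genes marked, against 33.5% of all protein-coding genes. KO 2 had 22, against 46.3%, WT 1 had 22, against 40.8%, and WT 2 had 16, against 26.3%. In every library the share of T and NK genes marked lay above that of all genes, at 47.2%, 61.1%, 61.1% and 44.4% by library. The median window of the 36 genes was covered to 16.4%, 46.2%, 52.2% and 19.4%, and the median window of all genes to 0%, 20.1%, 5.00% and 0%. In all 4 libraries 13 of the 36 were marked (24.1% of all genes), 12 were marked in none (49.1%) and 11 varied between libraries. With the lists cut to equal covered length by keeping the peaks of highest signal, the counts were 14, 12, 11 and 16, so the 2 broadest lists no longer led. Those counts were 38.9%, 33.3%, 30.6% and 44.4% of the 36, and all genes then stood at 28.2%, 27.8%, 27.5% and 26.3%.

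The libraries differed in breadth. Their peaks spanned 144, 236, 213 and 101 Mb, and read depth was unknown. As a check on the labelled cell type, 20 B cell and germinal center genes had 2, 6, 1 and 0 members marked, with Cd74, Cr2, Bcl6 and S1pr2 at 0% over window and body in every library. The share marked was 10%, 30%, 5% and 0%, against 33.5%, 46.3%, 40.8% and 26.3% of all genes. The highest windows of that list were Efnb1, with 36.7%, 49.5%, 80.1% and 0%, and Basp1, with 0%, 72.6%, 0% and 23.6%. Ms4a1 had 33.5%, 41.85%, 0% and 14.3%. Cd79a, Cd79b and Blnk were marked in KO 2 alone, with 25.2%, 34.75% and 28.6%, and had 0% in the other libraries. The body of Cd79b was covered to 58.9% in KO 2. Of 10 myeloid genes, 7, 8, 9 and 5 were marked, or 70%, 80%, 90% and 50%. In bulk cells, a mark in fewer cells and less of the mark per cell cannot be told apart.

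**Figure D1:**
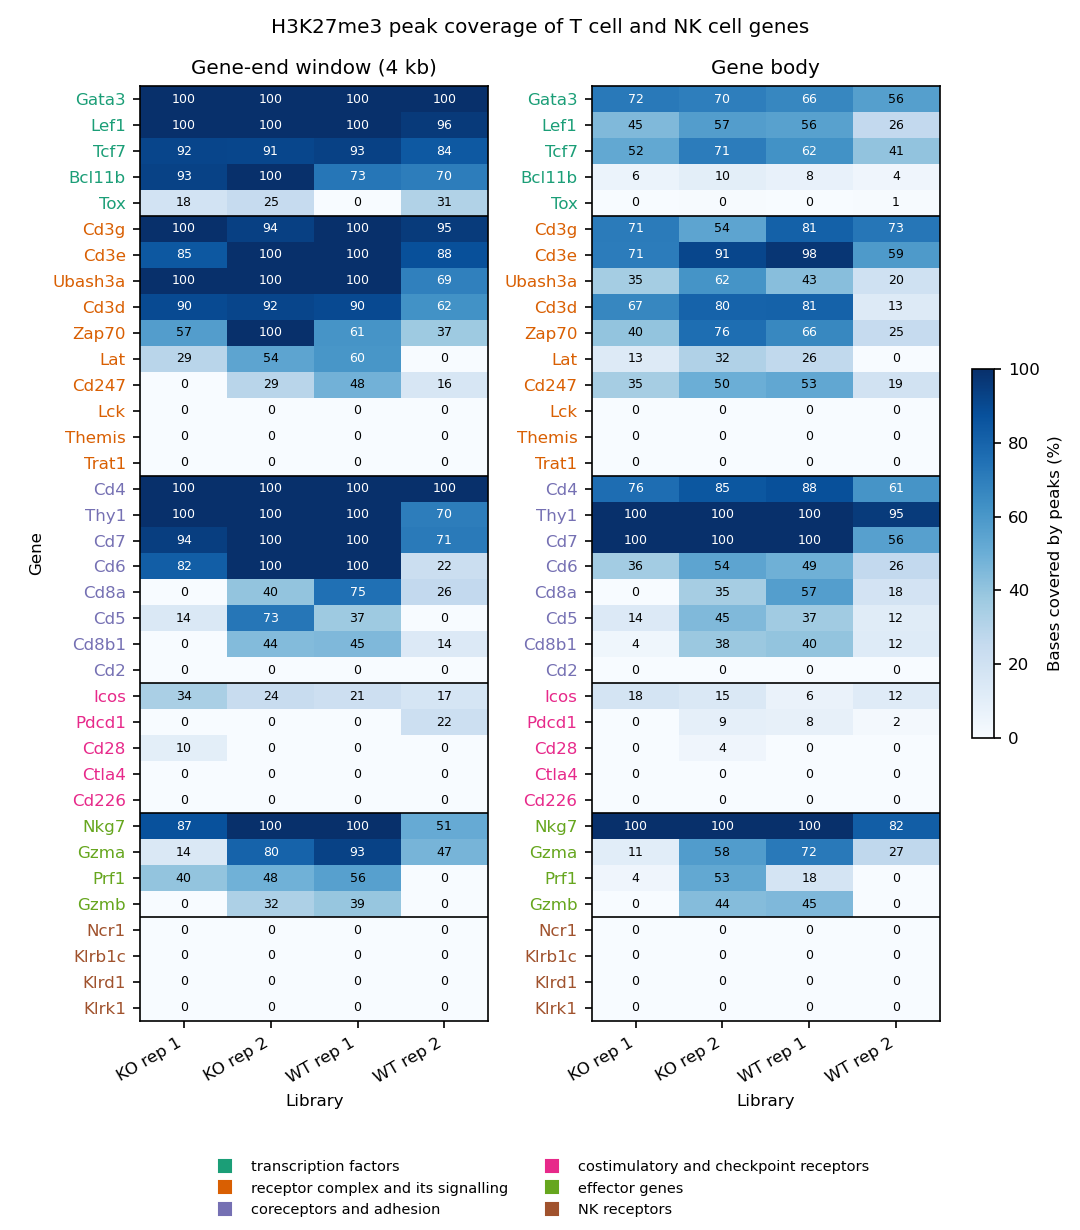
Percent of bases under H3K27me3 peaks for the 36 T and NK genes (rows, coloured by class and ordered within class by mean window coverage) in the 4 libraries (columns), for the gene-end window (left) and the gene body (right). Each cell prints its percent, and the rows of Gata3 and Cd4 are near 100 throughout in the left panel while all 4 NK receptors are at 0 in both panels.

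Among the transcription factors, 4 of 5 were marked in all 4 libraries, and the marked window of those 4 lay at the outermost 5′ end of the gene. Gata3, which directs helper T cell fate (chr2:9857078-9887953), had its window covered to 100% in each library and its body to 71.8%, 69.7%, 66.5% and 56.3%. Its longest peak measured 24820, 36119, 31693 and 22015 bp. Those peaks were at the 99.94, 99.91, 99.93 and 99.99 percentile of width in their own lists, so Gata3 carried a domain among the broadest of each map. Lef1, a partner of Wnt signalling in early T cells (chr3:131110297-131224357), had window coverage of 100%, 100%, 100% and 96.1%. Tcf7, which encodes the T cell commitment factor TCF-1 (chr11:52246527-52283383), had 91.5%, 91.3%, 93.2% and 84.2%. At both genes the 4 libraries lay close together, with WT 2 the lowest. Over the body, Lef1 had 44.6%, 57.2%, 55.5% and 26.1% and Tcf7 52.4%, 70.7%, 62.2% and 40.6%, again with WT 2 lowest. The longest peak on Lef1 measured 12919, 20629, 22936 and 6761 bp and that on Tcf7 8141, 11887, 12797 and 7662 bp, all shorter than the peak on Gata3 in the same library. Bcl11b, which locks in T cell identity (chr12:107910403-108004145), had 92.7%, 100%, 72.8% and 70.0%, and the KO values lay above the WT values. Peaks took up only 5.90%, 10.0%, 7.77% and 3.93% of its long body. Its longest peak measured 3834, 5309, 3142 and 2825 bp, shorter than at Gata3, Tcf7 and Lef1 in the same library. Those peaks still stood at the 91.5, 90.1, 80.5 and 93.1 percentile of width in their own lists. The opposite gene end had no coverage in any library at Gata3, Tcf7 and Bcl11b, and only WT 2, with 4.62%, had any at Lef1. The bases covered in all 4 libraries made up 56.3% of the body of Gata3, 36.3% of Tcf7, 19.8% of Lef1 and 1.51% of Bcl11b.

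Tox, a factor of thymocyte development and of exhausted T cells (chr4:6686353-6991557), stood apart from the other 4. Its best window had 18.5%, 24.9%, 0% and 31.3%. KO 2 lay just under the threshold, so the single library in which Tox counted as marked is a narrow call. Its longest peaks were 740, 996 and 1174 bp in the 3 libraries that had any, and of its 305205 bp, 302214 were free of peaks in all 4.

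**Figure D2:**
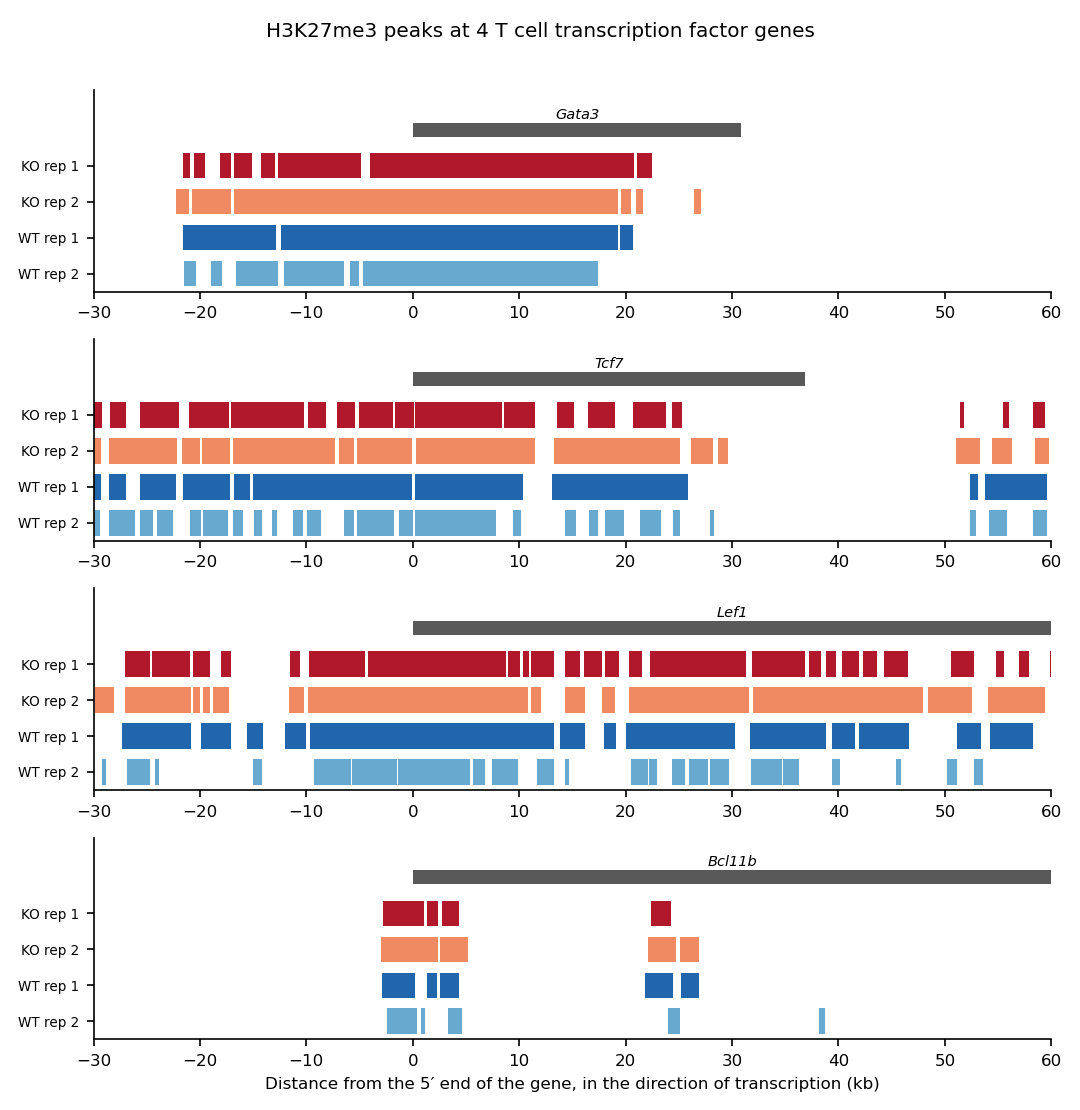
Peaks (coloured bars, 1 row per library) around 4 transcription factor genes, with distance in kb from the annotated 5′ end of the gene in the direction of transcription and the gene drawn in grey. At Gata3, Tcf7 and Lef1 peaks run on both sides of the 5′ end in all 4 libraries. Bcl11b has a few shorter peaks, with a gap just inside the gene in the WT libraries.

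Within the receptor complex and its signalling, the CD3 genes were covered and a group of signalling genes was bare. Cd3g, Cd3d and Cd3e, the chains that couple the antigen receptor to the cell interior, lie side by side over 40092 bp (chr9:44969572-45009663). Peaks took up 57.7%, 74.3%, 74.0% and 46.2% of that stretch. Cd3e had window values of 84.6%, 100%, 100% and 87.8% and Cd3d of 89.5%, 91.6%, 89.9% and 62.3%. Cd3g had the highest window coverage of its class, with 100% and 93.6% in KO against 100% and 95.4% in WT. The windows of Cd3g and Cd3d overlap, and a single peak met both genes in every library but WT 2, so these genes are not independent observations. Over the body of Cd3d the values were 66.5%, 80.1%, 80.5% and 12.8%, which puts WT 2 far below the others. Cd247, the zeta chain encoded on another chromosome, had little at its ends, with window values of 0%, 29.1%, 48.4% and 16.3%. Its body was nonetheless covered to 34.8%, 49.9%, 52.9% and 19%.

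Of the proximal signalling genes, Ubash3a, a negative regulator of receptor signalling, had a window covered to 100% in 3 libraries and to 68.8% in WT 2. Zap70, the kinase recruited to the zeta chain, had 57.3% and 100% in KO against 61.2% and 37.4% in WT. Those values come from the end opposite its outermost 5′ end. The 5′ end of Zap70 had 47.5% and 62.5% in KO against 63.35% and 3.275% in WT. Lat, the adaptor that Zap70 phosphorylates, had 29.0% and 54.3% in KO against 60.3% and 0% in WT, and its window also holds part of Spns1. Lck, the kinase that starts the cascade, had no peak base in any library, and its nearest peak was 33041 to 102547 bp away. Themis, which tunes receptor signals in the thymus, and Trat1, a transmembrane adaptor, were equally bare. The nearest peak was 259340 to 259812 bp from Themis and 691269 to 693341 bp from Trat1. In this class, then, 5 genes were marked in all 4 libraries, 3 in none, and Lat and Cd247 in some. Zap70 counted among the 5 only by the end opposite its 5′ end.

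Among the coreceptors, Cd4 was marked in every library at its better-covered end, and the Cd8 genes were covered in part. Cd4 (chr6:124864693-124888247) had 100% in 3 libraries and 99.6% in WT 2 at its lower-coordinate end, whose window also holds part of Gpr162, and its body was covered to 76.5%, 84.8%, 87.7% and 61.1%. The higher-coordinate end of Cd4 had less, with 25.15%, 76.05%, 32.0% and 23.8%. No promoter entry gave its strand, so which end holds the start was not known here. The longest peak on Cd4 measured 10839, 24176, 23843 and 9209 bp, longest in KO 2 and WT 1, the broadest lists. Cd8a had 0% and 40.2% in KO against 75.2% and 26.0% in WT, and Cd8b1 had 0% and 44.0% in KO against 45.2% and 13.5% in WT. Both Cd8 genes were lowest in KO 1, which was not the shortest list. Over the 56384 bp from Cd8b1 to Cd8a, coverage was 9.94%, 25.6%, 28.3% and 7.34%.

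Among the adhesion and surface genes, Thy1, a surface protein of mouse T cells, was covered over its body to 100% in 3 libraries and to 95.4% in WT 2. Its window had 100% in the same 3 and 70.0% in WT 2. Cd7, a surface molecule of T and NK cells, had 94.3%, 100%, 100% and 71.5% of its window and 100%, 100%, 100% and 56.1% of its body covered. Cd6 and Cd5, related receptors that restrain T cell signalling, lie near each other on chromosome 19. The window of Cd6 was covered to 82.2% and 100% in KO against 100% and 22.3% in WT, and that of Cd5 to 14.3% and 73.0% in KO against 37.2% and 0% in WT. Both were lowest in WT 2. The Cd6 window is its lower-coordinate end, and its higher-coordinate end had 32.9%, 0%, 35.8% and 23.4%. Over the 111956 bp from Cd5 to Cd6, peaks took up 29.2%, 55.1%, 46.0% and 18.0%. Cd2, the adhesion molecule that mouse B cells also carry, had no peak base in any library, with the nearest peak 4105 to 6655 bp away.

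The costimulatory and checkpoint receptors were nearly free of the mark. Icos, the receptor through which T follicular helper cells are sustained, was the highest of the class, with 33.9% and 24.2% in KO against 21.1% and 17.1% in WT, and it alone reached 25% in any library. Pdcd1, which encodes the checkpoint receptor PD-1, had 21.7% of its window covered in WT 2 and 0% in the others, and Cd28, the main costimulatory receptor, had 10.2% in KO 1 and 0% in the others. Ctla4, the inhibitory counterpart of CD28, and Cd226, an activating receptor of T and NK cells, had 0% in every library. Cd28, Ctla4 and Icos lie within 253935 bp on chromosome 1, of which peaks covered 5.50%, 6.48%, 4.17% and 4.85%.

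Coverage of the effector genes varied between libraries. All 4 were marked in KO 2 and WT 1, the broadest lists, and 2 of 4 in each of the others. All protein-coding genes stood at 33.5%, 46.3%, 40.8% and 26.3% by library. Nkg7, a protein of cytotoxic granules, was the highest, with 87.1% and 100% in KO against 100% and 51.3% in WT, and its window also holds part of Lim2, a lens gene. Gzma, the protease granzyme A, had 14.3% and 80.2% in KO against 93% and 47.0% in WT, and its window also holds part of Cdc20b. Prf1, the pore-forming protein perforin, had 40.2% and 48.5% in KO against 56.0% and 0% in WT. Gzmb, the protease granzyme B, was the lowest, with 0% and 32.5% in KO against 39.4% and 0% in WT. At equal covered length, marked effector genes numbered 1, 0, 0 and 2 of 4, while the transcription factors stayed at 4, 4, 4 and 5 of 5 and the receptor complex class had 5, 4, 4 and 5 of 10.

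The NK receptors had no H3K27me3 peak at all. Ncr1, the activating receptor NKp46, Klrb1c, the NK1.1 antigen, Klrd1, which encodes CD94, and Klrk1, which encodes NKG2D, were at 0% over body and both ends in 4 of 4 libraries. The nearest peak was 12076 to 21722 bp from Klrb1c, 3294 to 23608 bp from Klrd1, 25525 to 45839 bp from Klrk1 and 39565 to 51165 bp from Ncr1. The stretch from Klrb1c to Klrk1 (chr6:128778485-129623903) holds 23 protein-coding genes and was not empty, with 35, 44, 38 and 27 peaks that covered 5.41%, 8.48%, 7.06% and 3.46%. None of those peaks met Klrb1c, Klrd1 or Klrk1. Many genes there belong to families with close copies, so how reads were placed is uncertain, and its part in the result was not tested. Together with Lck, Themis, Trat1, Cd2, Ctla4 and Cd226, these make 10 of the 36 genes with no peak base in the body, against 36.9% of all genes. The same 10 had none within 2000 bp of the body, and 7 had none within 5000 bp.

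**Figure D3:**
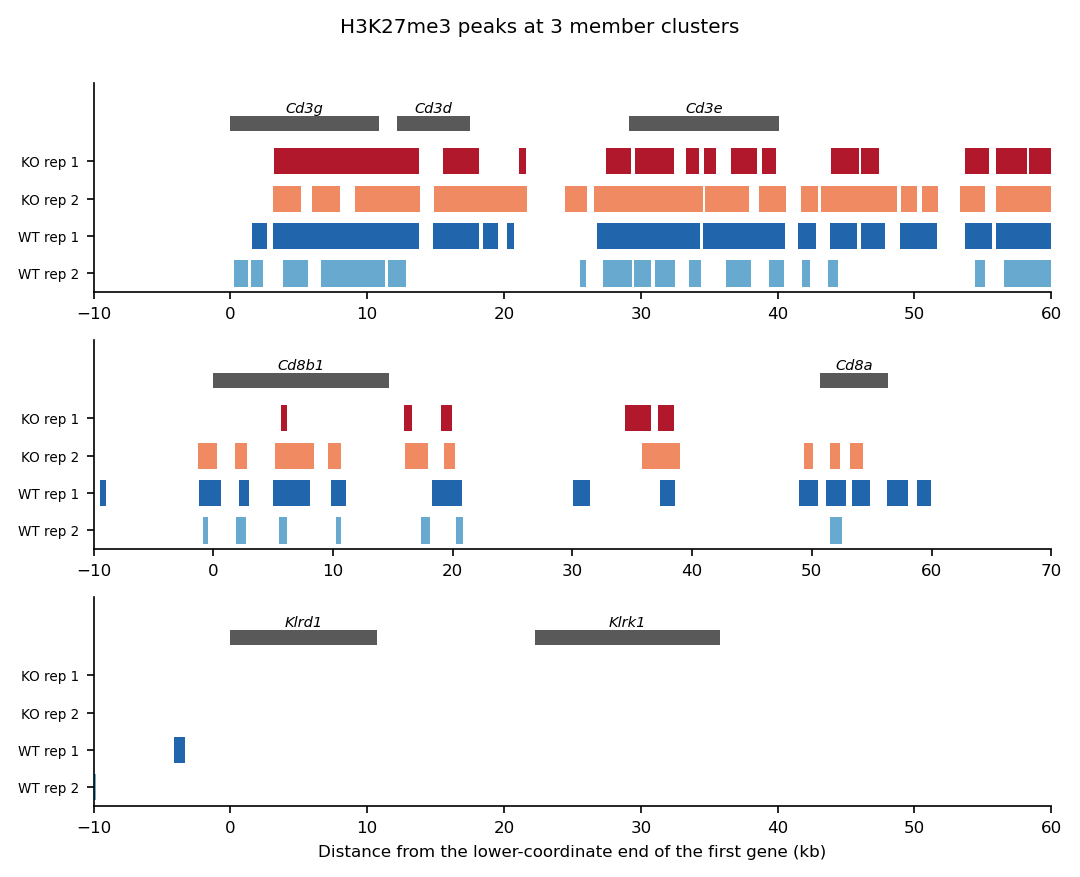
Peaks (coloured bars, 1 row per library) at the Cd3 cluster, the Cd8 pair and the Klrd1 and Klrk1 pair, with distance in kb from the lower-coordinate end of the leftmost gene and genes drawn in grey. Peaks cover much of the Cd3 genes, apart from Cd3d in WT rep 2, and less of the Cd8 genes, and Klrd1 and Klrk1 have none.

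Where strand was known, coverage was more often higher at the outermost 5′ end of the gene. Of the 25 genes with a promoter entry, 15 had higher mean coverage at the 5′ end, 3 (Cd3e, Zap70 and Gzmb) at the other end, and 7 had none at either. The annotated start can lie outside that 5′ window, being 9353 bp away at Gata3, 8729 bp at Cd247 and 38485 bp at Trat1. Cd247 counts among the 15, yet a window on its annotated start had 0%, 0%, 35.2% and 0%. Among all 17492 genes with an entry, 48.6% were higher at the 5′ end and 13.7% at the other end.

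The CpG content of the promoter went with coverage among these genes, with clear exceptions. A window of the same 4000 bp was placed on the annotated start, taking the entry nearest the gene's 5′ end. Gata3, Tcf7 and Lef1 have 22, 45 and 18 CpGs in 300 bases, the only members with 16 or more, and 3 of 3 were marked in every library. Of the 15 members with fewer than 6 CpGs, 4, 7, 8 and 5 were marked by library. All genes with so few CpGs were marked at 17.1%, 24.8%, 23.4% and 12.8%, those with 6 to 15 at 35.5%, 50%, 44.9% and 28.3%, and those with 16 or more at 35.0%, 50.4%, 42.3% and 27.4%. Over all genes the 2 upper classes were thus marked at similar shares. Of the 7 members with 6 to 15 CpGs, 5, 5, 5 and 3 were marked. Cd3d and Nkg7, with 1 and 3 CpGs, were marked in all 4 libraries at the start, while Lck and Ctla4, with 7 and 8, had no coverage. Across the 25 genes the Spearman correlation of CpG count and mean coverage was 0.52, and across 17492 genes it was 0.29. The median was 5 CpGs per promoter in the 25 genes and 13 in all. Without Gata3, Tcf7 and Lef1 the correlation was 0.31 over 22 genes. Genes share libraries and neighbourhoods, so these correlations are descriptions.

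**Figure D4:**
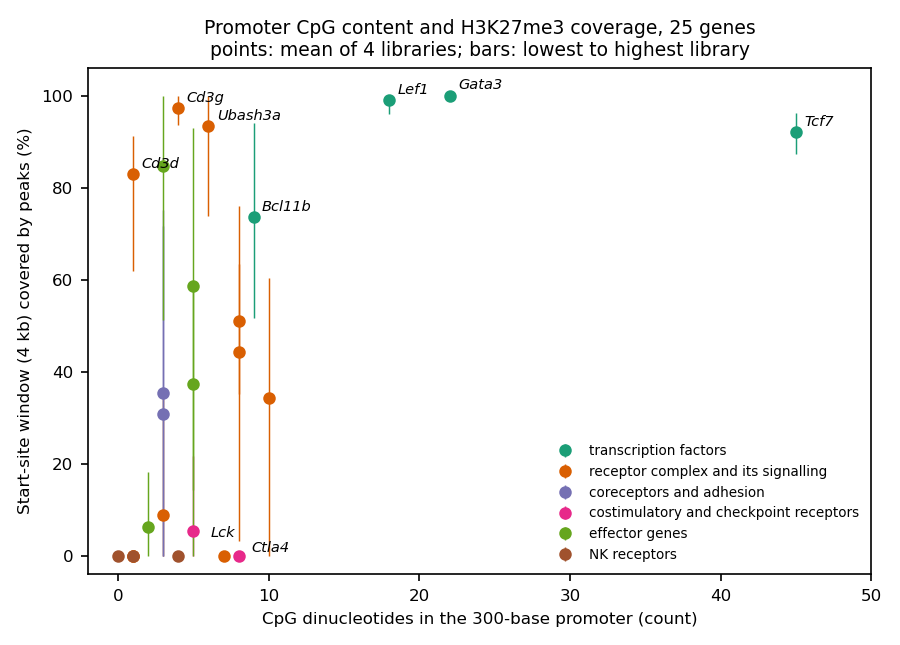
CpG dinucleotides in the 300-base promoter (x axis, count) against the percent of the 4000 bp start-site window covered by peaks (y axis) for 25 T and NK genes, with the mean of 4 libraries as points and the span from lowest to highest library as bars. Gata3, Lef1 and Tcf7 sit at the upper right, while genes with fewer than 16 CpGs range from 0 to near 100%.

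The comparison of KO with WT asks whether loss of an H3K27 demethylase in B cells goes with more of the mark on these genes. No T or NK gene passed the test for a difference between genotypes. Of the 26 genes with coverage in any library, 0 passed limma in either direction at the gene end (adjusted p under 0.05, called at 0% of 13844 gene ends), and at an unadjusted p under 0.05 there was 1, Bcl11b, higher in KO. That unadjusted criterion took 3.54% of all gene ends as higher in KO and 0.477% as lower. The mean was higher in KO at 17, lower at 8 and equal at 1, while over all tested gene ends 70.5% were higher and 25% lower. The median difference, KO minus WT, was 0 points over the 36 genes and 5.56 points over the 26, against 0 and 6.61 points for all and for tested genes. Over gene bodies 0 of 26 passed, against 0.0145% called higher and 0% lower among 13805, and 0 had an unadjusted p under 0.05, against 1.56% higher and 0.34% lower. The median body difference was 2.04 points over the 36 and 6.30 over the 26, against 0 and 1.53 points for all and for tested genes, and over the 36 it was 0 to 6.91 when a library was left out.

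The KO and WT lists overlapped in covered length, with 144 and 236 Mb against 213 and 101 Mb. With covered length as a covariate, 0 of the 26 genes passed at either the gene end or the body.

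Bcl11b had the smallest unadjusted p of the 26 gene ends. Mean window coverage was 96.3% ± 5.20 in KO against 71.4% ± 2.03 in WT (SD, n = 2). The difference of 24.9 points (SE 4.57) had a limma p of 0.0140 and an adjusted p of 0.895. The 300-base promoter printed above was covered to 100% in both KO libraries, to 0% in WT 1 and to 5.33% in WT 2. That promoter was singled out after its values were seen, and a pattern of whole coverage in both KO and under 10% in both WT occurred at 0.829% of 17492 promoters, its reverse at 0.103%. Over the 93743 bp of the gene, 386 bases were covered in both KO and neither WT, 1416 in all 4 and 0 in both WT and neither KO. Both KO values also lay above both WT values at the Icos window, and the WT values above the KO values at none, so 2 of 26 genes separated upward, against 14.4% of tested gene ends, and 0 downward, against 2.26%. Over gene bodies Gata3 and Icos separated upward (12.3% of all) and Cd3g downward (2.75%).

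At the other genes with large differences, libraries of the same genotype lay far apart. Cd8a had the largest, -30.5 points (SE 26.9, limma adjusted p = 0.895), with KO libraries at 0% and 40.2% and WT libraries at 75.2% and 26.0%. It was -5.88 without WT 1, -10.4 without KO 1, -50.6 without KO 2 and -55.1 without WT 2, and with stricter peaks it was 20.1. With covered length as a covariate it was -44.9 points, with a limma p of 0.00816 and an adjusted p of 0.873. Cd6 had 29.9 points (SE 33.6, adjusted p = 0.900), and it was -8.91 without WT 2 and 8.39 with both ends averaged. Zap70 had 29.4 points (SE 20.8, adjusted p = 0.895), and it was 8.03 without KO 2 and 50.7 without KO 1. Cd5 had 25.1 points (SE 29.3, adjusted p = 0.905), and without KO 2 it was -4.24. Gata3, Tcf7 and Lef1 differed by 0, 2.75 and 1.96 points, and Tox by 6.04 points (SE 13.8). Gata3 was at the ceiling of the measure, where a gain cannot show. At 2 mice per genotype, a missing call is no evidence of an equal mark.

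**Figure D5:**
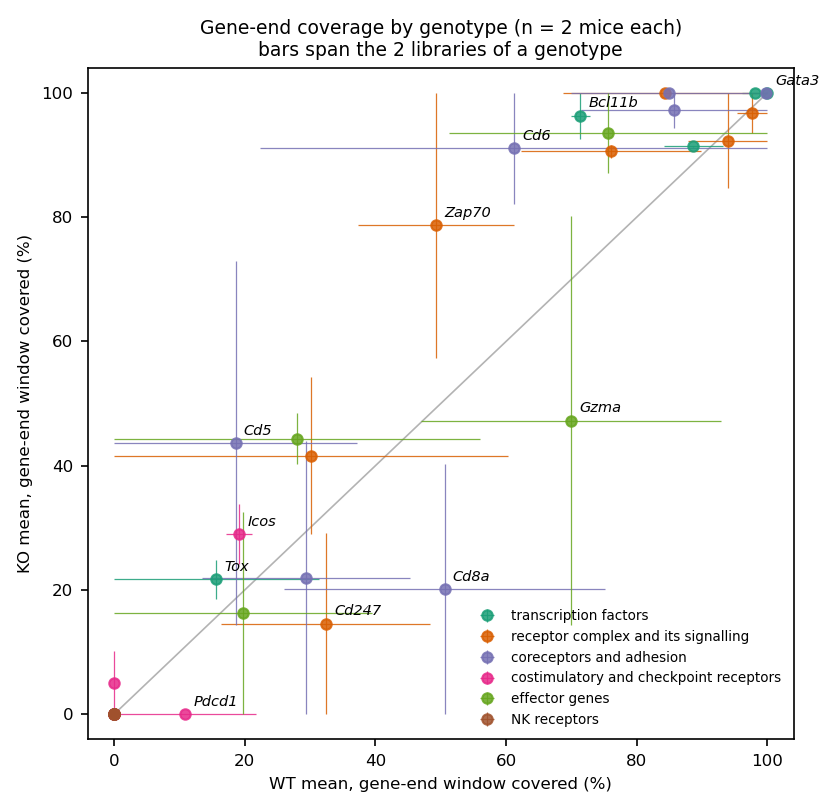
Mean gene-end coverage in KO (y axis, percent) against WT (x axis, percent) for the 36 genes, coloured by class, with bars spanning the 2 libraries of each genotype and the grey line marking equality. Bcl11b lies above the line with short bars, while Cd5, Cd6, Cd8a and Gzma have long bars.

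Further genes of the same lineages were marked at close to the share of all genes. Of 58 other T and NK genes, 20, 32, 25 and 13 were marked, or 34.5%, 55.2%, 43.1% and 22.4%, against 33.5%, 46.3%, 40.8% and 26.3% of all genes. The 11 other transcription factors were marked at 7, 10, 7 and 5. Eomes, a factor of cytotoxic T and NK cells, had 100% in all 4. Foxp3, the factor of regulatory T cells, was at 0% in every library. Of 12 other signalling genes 4, 5, 4 and 2 were marked, of 15 other receptors and ligands 3, 8, 5 and 2, and of 10 other effector genes 2, 4, 3 and 2. Of the 15 receptors and ligands, 7 were marked in no library and 2, the checkpoint receptors Lag3 and Havcr2, in all 4. Lag3 had 43.3%, 86.9%, 64.4% and 49.65%, and Havcr2 60.25%, 100%, 27.9% and 46.6%. The low coverage of the 5 costimulatory and checkpoint receptors above thus did not extend to these. Of 10 other NK genes, 4, 5, 6 and 2 were marked, so the blank over the 4 NK receptors above did not extend to all of them. Klre1, a lectin-like receptor of the same chromosome 6 complex, had 75.6% and 83.9% in KO against 51.3% and 42.2% in WT, whereas Klrc1, Klri1 and Klra1 had 0% throughout. Of 44 such genes with coverage, 0 passed limma in either direction, against 0% of all tested gene ends. At an unadjusted limma p under 0.05, 2 were higher and 0 lower in KO, against 3.54% and 0.477% of all tested gene ends.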

How the data were processed

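H3K27me3 was mapped in 4 libraries, and each had its own peak list, called per library. Per the submitters' processing notes, the tools were SEACR, deepTools, Bowtie2 2.4.2, Trim Galore 0.6.6 and SAMtools 1.11, on mm10; the sources used here give neither settings nor the control and threshold of peak calling. The authors deposited the total and highest signal of each peak, on an unstated scale, so signal only ranked peaks within a list. Read depth was unknown and no counting interval was computed. Precision rests on 2 mice per genotype.

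Autosomal, X and Y peaks were placed on RefSeq GRCm38.p6, the assembly of mm10, and the percent of bases under peaks was computed. Start sites were known for 79.9% of genes, below the 80% required for their use as the main window. The better-covered gene end was therefore used, and the outermost 5′ end was an alternative. Exon and intron positions were not used here. Covered percent was compared by limma 3.58.1 (lmFit, eBayes, R 4.3.3) over all gene ends or bodies with coverage, with Benjamini-Hochberg adjustment, and the script was tested on simulated data. Of 125 listed symbols 124 were found, all but Zfp683. Full values were given for the transcription factors, the highest and lowest member of each other class and the 5 largest differences. The members and lists were chosen with earlier results of these data known. Alternatives were other peak lists, windows, gene ends, thresholds, a covariate and each library left out. The alternatives for the count marked in every library, the wider flanks and the correlation without CpG-rich genes were added after seeing the data. Python 3.11.15, numpy 2.4.6, pandas 2.3.3, scipy 1.17.1 and matplotlib 3.10.9 were used.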

Additional observations from a re-analysis of the deposited data

How the results depend on the processing

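The count of T and NK genes marked moved by over 1.5 times only at equal covered length, to 12 (KO 2) and 11 (WT 1). The count marked in every library was 13 to 16 without 1 library and 11 at equal covered length. No T or NK gene passed limma at its gene end or body under any alternative run. Over all genes, 21 gene ends passed when genes without coverage were kept, where their zero spread enters the shared estimate, and 0 under the other alternatives. Gene bodies passing numbered 2, then 1 at equal covered length, 8 without the filter, 0 with covered length as a covariate and 0 to 0 without 1 library. The correlation with CpG count was 0.48, 0.45 and 0.47 with KO 2, WT 1 or WT 2 alone, and 0.31 without the CpG-rich genes.

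Of 148 alternative differences for 14 genes, 20 turned sign, and the cause was not tested. With 1000 bp to each side Tcf7 was -1.05 and Cd3g 4.60 points. With 5000 bp Lef1 was -0.67, Tox -2.47 and Cd3g 4.89. At equal covered length Tox was -15.7, and with stricter peaks Cd3g was 16.1 and Cd8a 20.1. Averaging both ends gave Lef1 -0.17 and Gzmb 1.00, and the outermost 5′ end gave Gzmb 5.47. Leaving out 1 library gave ranges of -1.76 to 7.26 for Tcf7, -9.62 to 21.7 for Tox, -4.12 to 2.30 for Cd3g, -4.24 to 54.4 for Cd5, -8.91 to 68.8 for Cd6, -55.1 to -5.88 for Cd8a, -23.2 to 16.2 for Gzmb and -6.44 to 42.3 for Nkg7. Bcl11b was 21.3 to 28.6, and over its 11 alternatives it was 12.5 to 33.7 points higher in KO, with limma adjusted p from 0.172 to 0.998. The counts per library have no value with that library left out. No paired analysis was possible because the labels give no replicate numbers, and those used here, in accession order, only name the libraries.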
